A study of Homo sapiens with 6 samples.

Results

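The 57 genes described here serve protein folding, protein entry and stress signalling in the endoplasmic reticulum (ER), the compartment where secreted and membrane proteins are made. They were taken from a list of ER chaperones, glycan-trimming enzymes, translocon and oligosaccharyltransferase subunits, degradation factors and stress sensors, and all 57 were found among the 60612 genes of each table. RNA sequencing had been carried out on HCT116, an established human colorectal carcinoma cell line, infected with the control lentivirus LV-NC (3 libraries) or with LV-SNORA28, a lentivirus that overexpresses the H/ACA small nucleolar RNA SNORA28 (3 libraries). The paper names the GV235 vector for the SNORA28 virus and does not plainly state that of the control, and RNA was purified on oligo(dT) beads. The paper describes puromycin selection for cells stably overexpressing SNORA28. It does not say whether the sequenced cells were selected. The labels do not say whether the 3 libraries of a group came from separate cultures, so the p-values measure the spread between these libraries only.

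Proteins bound for the secretory pathway enter the ER through the SEC61 channel, lose their signal peptide, receive N-linked glycans and fold with the help of chaperones and disulfide isomerases. Proteins that fail to fold are drawn back to the cytosol and degraded. When unfolded proteins accumulate, the sensors ATF6, ERN1 (IRE1) and EIF2AK3 (PERK) start the unfolded protein response, in which ATF6 and the spliced form of XBP1 raise the transcription of chaperone genes through promoter elements called ERSE, and PERK signals through ATF4. Secretory and epithelial cells, including those of the intestine, depend on this system.

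SNORA28 had 0.92, 0 and 0.64 FPKM with LV-NC and 15.01, 13.66 and 15.2 FPKM with LV-SNORA28, so more fragments were assigned to it with the overexpression virus. RNA was purified on oligo(dT) beads, and whether these fragments came from the mature small RNA was not tested. FPKM counts fragments relative to transcript length and to the mapped fragments of a library, so levels can be compared between genes. Of 8 markers of colorectal epithelium, 7 had at least 1 FPKM in all libraries and CDX1 had 0, while 5 of 6 fibroblast markers, 4 of 5 leukocyte markers and 3 of 3 endothelial markers stayed below 1 FPKM in each library. The exceptions were COL1A1, at 3.16 to 4.46 FPKM, and CD68, at 0.95 to 4.12 FPKM. The summed level of the leukocyte list was 1.1 to 2.33 FPKM with LV-NC and 2.36 to 4.14 FPKM with LV-SNORA28, and its part in the results was not tested. Mitochondrially encoded transcripts took 42.7% to 47.7% of summed FPKM in LV-NC and 35.9% to 38.3% in LV-SNORA28. Over all genes tested, the median log2 fold change was 0.09 as deposited and 0.06 after scaling to the non-mitochondrial sum.

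Most of the abundant folding machinery was lower in LV-SNORA28, while a few glycan-trimming, oxidase and translocon genes were higher. All 57 genes passed the filter, a mean over the libraries of 1 FPKM or more, though ERO1B did so only through its level in LV-SNORA28. At an adjusted p below 0.05 in limma, with the Benjamini-Hochberg method over all 12076 genes tested, 14 of the 57 fell (24.6%, against 2.10% of all genes tested) and 6 rose (10.5%, against 6.81%). In either direction 8.91% of all genes tested were called. The median log2 fold change of the 57 was -0.18, against 0.09 for all genes tested, and 39 of the 57 lay below 0, where 33.3% of all genes tested did. The values of the groups did not overlap for 36 of the 57 genes (63.2%, against 35.1% of all genes tested), with 27 lower and 9 higher. Over all genes tested, 8.16% were lower and 27.0% higher without overlap. In a bulk RNA sample, a lower FPKM can mean less of the transcript in each cell or fewer cells that make it, and these cannot be told apart.

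The 14 genes that fell were HYOU1, SDF2L1, CRELD2, MANF, DNAJB11, HSPA5, DNAJC3, CALR, PDIA4, PDIA3, SEC61A1, DDOST, SYVN1 and OS9. The 6 that rose were GANAB, PRKCSH, ERO1A, ERO1B, TRAM1 and SERP1, or 5 without ERO1B. Another 11 of the 37 genes without a call had an unadjusted p below 0.05, as did 21.0% of the 11000 genes without a call among all genes tested. The paper screened its genes with a fold change over 1.5 and an unadjusted p under 0.05. Here these cut-offs were put on the limma p-values and on fold changes of log2(FPKM + 1) values. With them 9 genes passed (15.8%, against 3.79% of all genes tested). Those passing were PDIA4, HYOU1, SDF2L1 and CRELD2 downward and ERO1A, MOGS, GANAB, TRAM1 and SERP1 upward. The 9 need not be the ER genes of the paper's own list, which was not compared. In all genes tested, 1.22% passed downward and 2.58% upward. The number of genes that fell was 10 without LV-NC replicate 1, 9 without LV-NC replicate 3, and 7 without LV-NC replicate 2 or any 1 of the LV-SNORA28 replicates. It was also 7 when no filter on low values was used. The number that rose stayed at 5 or 6 in all these fits. Over all genes tested, 822 were called higher and 254 lower, and after quantile normalization 451 were higher and 375 lower, with 6 of the 57 higher and 15 lower.

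**Figure D1:**
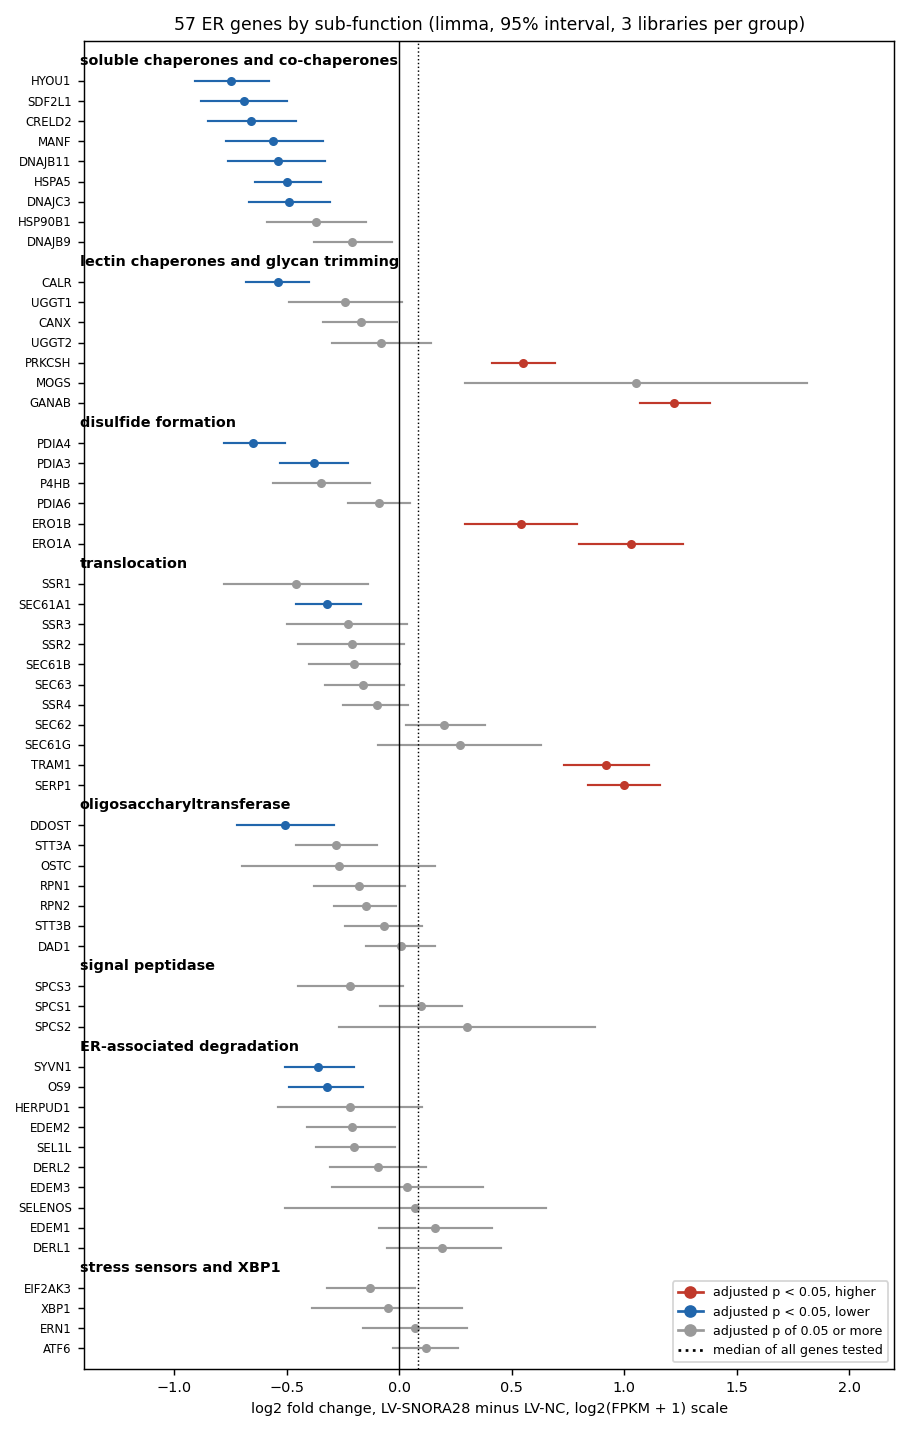
Log2 fold change (LV-SNORA28 minus LV-NC, x axis, log2(FPKM + 1) scale) of each of the 57 ER genes (y axis), grouped by sub-function, with 95% intervals from limma and 3 libraries per group. The 9 soluble chaperones all lie left of 0, the widest increases are those of GANAB, ERO1A, MOGS and SERP1, and the 4 stress signalling genes lie close to 0.

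The soluble chaperones and their partners showed the most uniform difference of the 8 sub-functions. Of the 9 genes, 7 fell and 2 did not pass the test, and in all 9 the groups did not overlap, with LV-SNORA28 lower. The median log2 fold change of the 9 was -0.54. Their summed level was 888 to 957 FPKM with LV-NC and 620 to 685 FPKM with LV-SNORA28.

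HSPA5 (BiP; ENSG00000044574; GRCh38 chromosome 9, 125234853 to 125241382), the central Hsp70 chaperone of the ER, was the most abundant of the 57 genes by mean. It had 425.95, 449.24 and 454.76 FPKM with LV-NC and 302.01, 323.16 and 317.32 FPKM with LV-SNORA28. The lowest LV-NC library stood above the highest LV-SNORA28 library, and the mean FPKM fell by 29.1%. The log2 fold change was -0.50 (SE 0.0587, adjusted p 0.00853 in limma). The promoter of HSPA5 is shown because it is the textbook unfolded protein response promoter. The 250 bases before the RefSeq start (minus strand, 5′ to 3′, GRCh38.p14) read as follows, with the exact ERSE match in capitals and near matches unmarked.
HSPA5 (chr9:125241344-125241593): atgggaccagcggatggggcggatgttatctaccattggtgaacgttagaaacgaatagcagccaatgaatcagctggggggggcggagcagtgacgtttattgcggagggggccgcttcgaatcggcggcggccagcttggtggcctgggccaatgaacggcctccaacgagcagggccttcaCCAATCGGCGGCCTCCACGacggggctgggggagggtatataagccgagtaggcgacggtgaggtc

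HYOU1, an Hsp110-type exchange factor for BiP (ENSG00000149428; chromosome 11, 119044188 to 119057227), had the largest decrease of the 57 genes. It had 58.78, 51.7 and 55.73 FPKM with LV-NC and 33.95, 31.28 and 32.55 FPKM with LV-SNORA28. The log2 fold change was -0.75 (SE 0.0686, adjusted p 0.00399 in limma), and the mean FPKM fell by 41.2%. SDF2L1, a partner of the ER DnaJ proteins, had 31.21, 35.19 and 37.48 FPKM with LV-NC and 20.58, 21.55 and 20.86 FPKM with LV-SNORA28, with a log2 fold change of -0.69 (SE 0.0782, adjusted p 0.00726 in limma). The 3 LV-SNORA28 libraries lay within 1 FPKM of each other and well below LV-NC.

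CRELD2, a stress-induced ER protein, had 8.98, 9.33 and 9.39 FPKM with LV-NC and 5.63, 6.0 and 4.91 FPKM with LV-SNORA28 (log2 fold change -0.66, SE 0.0807, adjusted p 0.0096 in limma). MANF, a secreted stress-induced factor that binds BiP, had 40.02, 47.15 and 44.15 FPKM with LV-NC and 26.85, 31.93 and 29.52 FPKM with LV-SNORA28 (log2 fold change -0.56, SE 0.09, adjusted p 0.0185 in limma). Mean FPKM fell by 40.3% for CRELD2 and by 32.8% for MANF. The ER DnaJ co-chaperones DNAJB11 (ERdj3) and DNAJC3 (p58IPK), which bring clients to BiP, also fell. DNAJB11 had 21.01, 23.93 and 22.74 FPKM with LV-NC and 13.52, 16.28 and 15.83 FPKM with LV-SNORA28 (log2 fold change -0.54, adjusted p 0.0192 in limma). DNAJC3 had 14.42, 12.75 and 14.53 FPKM with LV-NC and 9.44, 9.31 and 10.07 FPKM with LV-SNORA28 (log2 fold change -0.49, adjusted p 0.0155 in limma).

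The remaining pair had lower values without a call. HSP90B1 (GRP94), the Hsp90 of the ER, had 281.02, 298.2 and 312.28 FPKM with LV-NC and 202.38, 239.09 and 249.12 FPKM with LV-SNORA28. The LV-SNORA28 replicate 1 stood below its group, the log2 fold change was -0.37 (SE 0.0926), and the adjusted p was 0.0568 in limma. HSP90B1 passed in only 2 of 13 alternatives. Its adjusted p in limma was 0.0474 with scaling to the non-mitochondrial sum and 0.0448 when the filter was raised to 5 FPKM. With 1 library left out it was 0.0814 to 0.14. DNAJB9 (ERdj4), a co-chaperone often used as a reporter of IRE1 signalling, had 6.5, 6.29 and 5.63 FPKM with LV-NC and 5.29, 5.21 and 5.03 FPKM with LV-SNORA28, with an adjusted p of 0.125 in limma.

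HSPA5, HYOU1, SDF2L1 and CRELD2 kept an adjusted p below 0.05 in limma whichever library was left out. MANF reached 0.0533, 0.06, 0.0527 and 0.0698 without LV-NC replicates 2 and 3 and LV-SNORA28 replicates 1 and 3. DNAJB11 reached 0.0586, 0.0622, 0.0517 and 0.0622 without LV-NC replicates 2 and 3 and LV-SNORA28 replicates 2 and 3. DNAJC3 reached 0.0513, 0.0529 and 0.0667 without LV-NC replicate 3 and LV-SNORA28 replicates 1 and 2.

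Lectin chaperones and glycan-trimming enzymes did not move together. CALR (calreticulin; ENSG00000179218; chromosome 19, 12938578 to 12944489), a soluble chaperone that binds trimmed glycans, had 420.23, 436.79 and 452.47 FPKM with LV-NC and 290.68, 302.14 and 307.85 FPKM with LV-SNORA28. The groups were far apart relative to their spread, and the log2 fold change was -0.54 (SE 0.0578, adjusted p 0.00634 in limma). CANX (calnexin), its membrane-bound relative, had a log2 fold change of -0.17 with a 95% interval of -0.34 to -0.01 and an adjusted p of 0.154 in limma. The folding sensors UGGT1 and UGGT2, which re-glucosylate unfolded glycoproteins, had log2 fold changes of -0.24 and -0.08 (adjusted p 0.196 and 0.604 in limma).

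Both subunits of glucosidase II, the enzyme that trims the inner glucose residues and so controls binding to calreticulin and calnexin, rose. GANAB, the catalytic alpha subunit (ENSG00000089597; chromosome 11, 62624826 to 62646726), had 48.72, 52.54 and 54.31 FPKM with LV-NC and 127.28, 118.53 and 121.37 FPKM with LV-SNORA28. Each LV-SNORA28 library was above each LV-NC library by more than 60 FPKM, and this was the largest increase of the 57 genes (log2 fold change 1.22, SE 0.0638, adjusted p 0.00103 in limma). PRKCSH, the beta subunit that retains the enzyme in the ER (ENSG00000130175; chromosome 19, 11435284 to 11450968), had 33.94, 35.87 and 32.65 FPKM with LV-NC and 50.08, 51.64 and 49.62 FPKM with LV-SNORA28. The log2 fold change came to 0.55 (SE 0.0584, adjusted p 0.00634 in limma), smaller than that of its partner.

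MOGS (glucosidase I), which removes the outermost glucose, had 4.72, 3.75 and 9.59 FPKM with LV-NC and 16.21, 12.81 and 9.73 FPKM with LV-SNORA28. The LV-NC replicate 3 and LV-SNORA28 replicate 3 nearly met, at 9.59 and 9.73 FPKM. MOGS missed the threshold (log2 fold change 1.05, SE 0.32, adjusted p 0.0907 in limma) and passed only without LV-NC replicate 3, with an adjusted p of 0.0380. GANAB, PRKCSH and CALR kept their calls in all 13 alternatives.

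Of the 6 disulfide-forming genes, the isomerases PDIA4 and PDIA3 fell, the oxidases ERO1A and ERO1B were called higher, and P4HB and PDIA6 had no call. PDIA4 (ERp72; ENSG00000155660; chromosome 7, 149003062 to 149028662), a protein disulfide isomerase, had 157.39, 163.58 and 156.35 FPKM with LV-NC and 102.51, 96.82 and 104.45 FPKM with LV-SNORA28. The libraries of each group were close together and the mean FPKM fell by 36.4% (log2 fold change -0.65, SE 0.0562, adjusted p 0.00358 in limma). PDIA3 (ERp57), which works with calreticulin and calnexin, had 163.83, 167.78 and 155.46 FPKM with LV-NC and 118.27, 127.48 and 128.12 FPKM with LV-SNORA28 (log2 fold change -0.38, SE 0.0611, adjusted p 0.0184 in limma). Its processed pseudogene PDIA3P1, at a mean of 12.6 FPKM with LV-NC and 9.42 FPKM with LV-SNORA28, was also called lower, and reads of these near-copies could have been exchanged in the quantification. The adjusted p of PDIA3 was 0.0556, 0.0549, 0.0667 and 0.0621 without LV-NC replicate 2 and LV-SNORA28 replicates 1, 2 and 3.

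P4HB (PDI), the founding isomerase, had 179.41, 187.39 and 210.18 FPKM with LV-NC and 163.96, 150.17 and 138.37 FPKM with LV-SNORA28. These groups did not overlap, and the log2 fold change of -0.35 (SE 0.0899) had an adjusted p of 0.0612 in limma. P4HB passed in only 1 of 13 alternatives, at 0.0489 when the filter was raised to 5 FPKM. With 1 library left out its adjusted p was 0.0749 to 0.172 in limma. PDIA6 had a log2 fold change of -0.09 with a 95% interval of -0.23 to 0.05.

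ERO1A and ERO1B pass electrons from the isomerases to oxygen and so keep them active. ERO1A (ENSG00000197930; chromosome 14, 52639915 to 52695900) had 4.25, 4.48 and 5.16 FPKM with LV-NC and 9.74, 10.14 and 11.6 FPKM with LV-SNORA28, and the groups were far apart. Its log2 fold change was 1.03 (SE 0.095, adjusted p 0.00399 in limma). ERO1B, the less abundant paralogue, had 0.86, 0.63 and 0.67 FPKM with LV-NC and 1.26, 1.6 and 1.64 FPKM with LV-SNORA28 (log2 fold change 0.54, SE 0.10, adjusted p 0.0299 in limma). ERO1B entered the test only through its level in LV-SNORA28, so its call is no support for ERO1A. At these levels the scale understates the change, and the log2 fold change was 0.97 with a pseudocount of 0.1. The adjusted p of ERO1B was 0.0823, 0.0840, 0.102 and 0.109 without LV-NC replicates 2 and 3 and LV-SNORA28 replicates 2 and 3.

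**Figure D2:**
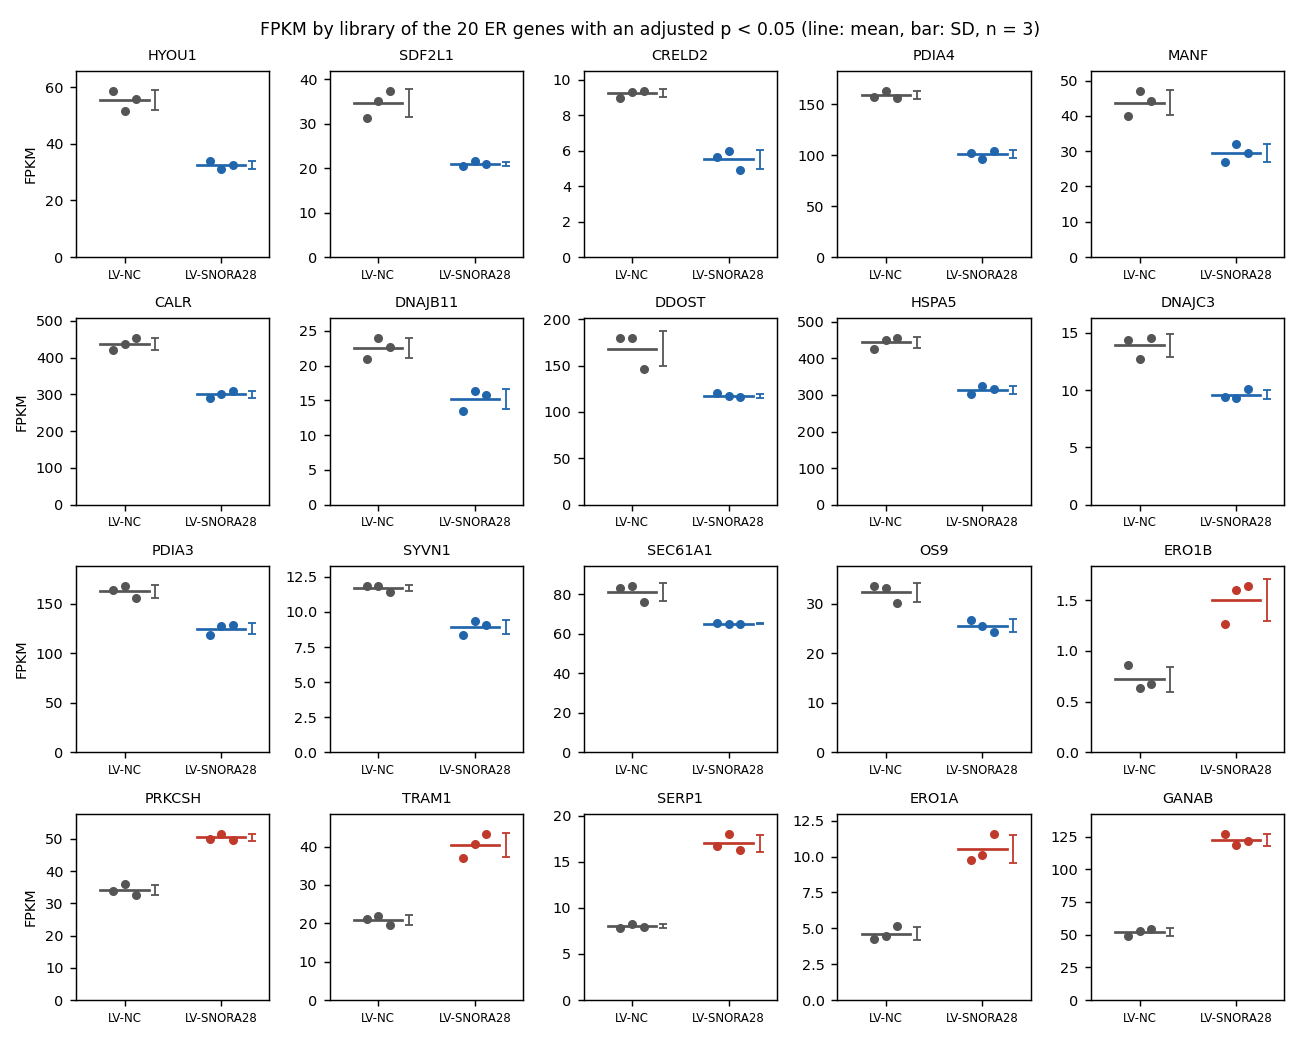
FPKM (y axis, from 0) in each library of LV-NC and LV-SNORA28 (x axis) for the 20 ER genes with an adjusted p below 0.05, ordered from the largest decrease to the largest increase. Points are libraries, horizontal lines are means and bars are SD (n = 3), and in each of the 20 genes the points of the groups do not overlap.

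Of the 11 translocation genes, SEC61A1 fell, TRAM1 and SERP1 rose and 8 had no call. SEC61A1, the pore-forming subunit (ENSG00000058262; chromosome 3, 128051641 to 128071705), had 83.48, 84.3 and 76.11 FPKM with LV-NC and 65.3, 64.8 and 65.0 FPKM with LV-SNORA28. The 3 LV-SNORA28 libraries were nearly identical and all below LV-NC (log2 fold change -0.32, SE 0.0599, adjusted p 0.0286 in limma). That p was 0.0647, 0.0800, 0.0758, 0.102 and 0.0994 without LV-NC replicates 1 and 2 and LV-SNORA28 replicates 1, 2 and 3, and it was below 0.05 only without LV-NC replicate 3. The other channel subunits SEC61B and SEC61G had log2 fold changes of -0.20 and 0.27 without a call (adjusted p 0.183 and 0.302 in limma).

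TRAM1, a membrane protein next to the channel that aids the entry of nascent chains (ENSG00000067167), rose. It had 21.06, 21.99 and 19.53 FPKM with LV-NC and 37.06, 40.66 and 43.39 FPKM with LV-SNORA28, with a log2 fold change of 0.92 (SE 0.0796, adjusted p 0.00358 in limma). SERP1 (RAMP4), a small membrane protein that binds the SEC61 complex and is known as a stress-associated ER protein (ENSG00000120742; chromosome 3, 150541998 to 150603228), had 7.8, 8.22 and 7.95 FPKM with LV-NC and 16.69, 18.05 and 16.23 FPKM with LV-SNORA28. Its libraries varied little within groups, and the log2 fold change was 1.00 (SE 0.0648, adjusted p 0.00207 in limma). Both genes kept their calls in all 13 alternatives.

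The 4 subunits of the translocon-associated protein complex (SSR1 to SSR4), which assists the insertion of some signal peptides, had log2 fold changes of -0.46, -0.21, -0.23 and -0.10 for SSR1, SSR2, SSR3 and SSR4, none with a call. SSR1 had 12.61, 13.33 and 13.13 FPKM with LV-NC and 10, 7.23 and 10.69 FPKM with LV-SNORA28, and the low LV-SNORA28 replicate 2 widened its spread (adjusted p 0.0829 in limma). SEC62 and SEC63, which serve entry after translation, had log2 fold changes of 0.20 and -0.16 (adjusted p 0.132 and 0.222 in limma).

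Of the 7 oligosaccharyltransferase subunits, which transfer the preformed glycan to the nascent chain, 1 fell and 6 did not pass. DDOST (OST48; ENSG00000244038; chromosome 1, 20651767 to 20661544), a subunit of the shared core, had 179.29, 179.34 and 145.96 FPKM with LV-NC and 120.16, 116.63 and 115.91 FPKM with LV-SNORA28. The LV-NC replicate 3 stood below its group but above all LV-SNORA28 libraries, and the log2 fold change was -0.51 (SE 0.0911, adjusted p 0.0248 in limma). That p was 0.0598, 0.0715, 0.0668, 0.0879 and 0.0891 without LV-NC replicates 1 and 2 and LV-SNORA28 replicates 1, 2 and 3, and 0.0169 without LV-NC replicate 3. The catalytic subunits STT3A and STT3B had log2 fold changes of -0.28 and -0.07 (adjusted p 0.067 and 0.576 in limma), and STT3A overlaps CHEK1 on the same strand. DAD1 had 70.02 to 77.43 FPKM with LV-NC and 70.04 to 76.35 FPKM with LV-SNORA28, with a log2 fold change of 0.01 and a 95% interval of -0.15 to 0.16.

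Among the accessory signal peptidase subunits none passed. SPCS3 had 16.47, 15.4 and 16.19 FPKM with LV-NC and 12.02, 13.55 and 15.62 FPKM with LV-SNORA28 (adjusted p 0.208 in limma). SPCS2 had 8.02, 13.39 and 6.22 FPKM with LV-NC and 11.19, 10.45 and 11.57 FPKM with LV-SNORA28 (adjusted p 0.455 in limma), and the LV-NC libraries on their own covered the range of the other group. The pseudogene SPCS2P4 was listed at means of 16.9 and 11.1 FPKM, so the reads of SPCS2 are uncertain.

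Of the 10 genes of ER-associated degradation, 2 fell and 8 did not pass. SYVN1 (HRD1), the ubiquitin ligase at the centre of the retrotranslocation complex (ENSG00000162298; chromosome 11, 65121780 to 65134532), had 11.82, 11.85 and 11.43 FPKM with LV-NC and 8.34, 9.36 and 9.08 FPKM with LV-SNORA28 (log2 fold change -0.36, SE 0.0654, adjusted p 0.0262 in limma). OS9, a lectin that delivers misfolded glycoproteins to that complex (ENSG00000135506; chromosome 12, 57693841 to 57728342), had 33.56, 33.12 and 30.05 FPKM with LV-NC and 26.78, 25.56 and 24.28 FPKM with LV-SNORA28 (log2 fold change -0.32, SE 0.0694, adjusted p 0.0388 in limma). Both are the least secure calls of the 20, since each lost its call whichever library was left out. The adjusted p of SYVN1 was 0.0598, 0.0724 and 0.0647 without LV-NC replicates 1, 2 and 3 and 0.0712, 0.0718 and 0.0847 without LV-SNORA28 replicates 1, 2 and 3. That of OS9 was 0.0851, 0.103 and 0.0526 and then 0.0717, 0.120 and 0.126 in the same order. SYVN1 overlaps FAU on the same strand, an abundant ribosomal protein gene at a mean of 128 FPKM in both groups, and OS9 overlaps AGAP2-AS1 on the same strand.

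The adaptor SEL1L, which holds SYVN1 in its complex, had a log2 fold change of -0.20 (95% interval -0.37 to -0.02, adjusted p 0.144 in limma). HERPUD1, a degradation factor strongly induced by ER stress, had 11.02, 8.82 and 13.19 FPKM with LV-NC and 8.69, 9.26 and 9.63 FPKM with LV-SNORA28. These groups overlapped, with an adjusted p of 0.336 in limma. The mannosidase-like proteins EDEM1, EDEM2 and EDEM3 had log2 fold changes of 0.16, -0.21 and 0.03, and the channel proteins DERL1 and DERL2 had 0.19 and -0.10, none with a call. SELENOS had a log2 fold change of 0.07 and a wide 95% interval of -0.51 to 0.65, with LV-NC replicate 1 at 5.06 FPKM and the other LV-NC libraries at 10.55 and 10.1 FPKM.

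The genes that signal the unfolded protein response showed no call. XBP1, whose spliced mRNA encodes the active transcription factor, had 16.23, 19.11 and 16.85 FPKM with LV-NC and 15.99, 14.1 and 20.66 FPKM with LV-SNORA28. The groups overlapped fully, and the log2 fold change of -0.05 had a 95% interval of -0.39 to 0.28. Gene-level FPKM does not separate spliced from unspliced XBP1. ATF6, the membrane-bound transcription factor released on stress, had 9.91, 9.77 and 10.38 FPKM with LV-NC and 10.56, 11.36 and 10.93 FPKM with LV-SNORA28 (log2 fold change 0.12, 95% interval -0.03 to 0.26, adjusted p 0.268 in limma). ERN1 had 2.57, 1.93 and 2.14 FPKM with LV-NC and 2.31, 2.29 and 2.5 FPKM with LV-SNORA28, with a 95% interval of the log2 fold change of -0.16 to 0.30. EIF2AK3 had 3.88, 3.63 and 3.74 FPKM with LV-NC and 3.02, 3.38 and 3.69 FPKM with LV-SNORA28, with a 95% interval of -0.32 to 0.07. For ATF6, ERN1 and EIF2AK3 these intervals leave out a change of the size seen in HSPA5. The sensors are switched by cleavage or phosphorylation of the protein, which these libraries do not measure.

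Promoter sequence was examined next, since ERSE is the element through which many chaperone genes answer stress. Windows of 300 bases, from 250 before to 50 after the start, came from RefSeq on GRCh38.p14 and were found for 50 of the 57 genes. DERL1, MOGS, PDIA3, RPN1, SPCS1, STT3B and TRAM1 had no window. ERSE was searched as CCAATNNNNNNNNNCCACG and ERSE-II as ATTGGNCCACG, each on both strands. The motifs share CCACG, and ATTGG is the reverse complement of CCAAT, so they can overlap. An exact ERSE was in 27 of 35116 promoter windows (0.0769%) and in windows of 9 of the 50 genes. Counted by gene, it was in 15 of the 8817 tested genes with a window, these ER genes included. An exact ERSE-II was in 19 windows (0.0541%), in windows of 3 of the 50 genes and in 13 of the 8817 tested genes. The sites of the 9 genes are given because they allow the elements of genes that fell, rose or had no call to be compared. They are read 5′ to 3′ in the direction of the element, on GRCh38.p14, with the 19-base element in capitals and 5 flanking bases on each side.
CALR (chr19:12938384-12938402): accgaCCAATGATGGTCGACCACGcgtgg
CANX (chr5:179698778-179698796): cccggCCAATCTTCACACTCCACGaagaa
CRELD2 (chr22:49918554-49918572): atggcCCAATCCGAGTTCGCCACGagagg
ERO1B (chr1:236282183-236282201): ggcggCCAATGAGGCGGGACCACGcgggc
HSP90B1 (chr12:103930216-103930234): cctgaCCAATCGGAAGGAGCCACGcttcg
HSP90B1 (chr12:103930321-103930339): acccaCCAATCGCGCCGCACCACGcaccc
HSPA5 (chr9:125241391-125241409): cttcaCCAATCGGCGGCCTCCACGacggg
PDIA6 (chr2:10812853-10812871): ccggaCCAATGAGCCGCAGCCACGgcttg
SERP1 (chr3:150546710-150546728): aaacaCCAATTCGCTGTCTCCACGcatga
XBP1 (chr22:28800603-28800621): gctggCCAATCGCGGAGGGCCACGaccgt

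The sites of ERSE-II, with the 11-base element in capitals, lie in HERPUD1, HYOU1 and SDF2L1, and HYOU1 has a pair of them.
HERPUD1 (chr16:56932025-56932035): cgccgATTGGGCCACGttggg
HYOU1 (chr11:119057274-119057284): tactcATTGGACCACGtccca
HYOU1 (chr11:119057380-119057390): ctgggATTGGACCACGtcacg
SDF2L1 (chr22:21642114-21642124): ttttgATTGGTCCACGcttcc

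Of the 12 genes with an exact ERSE or ERSE-II, 5 fell (HSPA5, CALR, CRELD2, HYOU1 and SDF2L1), 2 rose (SERP1 and ERO1B) and 5 had no call (HSP90B1, CANX, PDIA6, XBP1 and HERPUD1). Their median log2 fold change was -0.30. Of the 38 genes with a window and neither element, 8 fell, 3 rose and 27 had no call, with a median of -0.20. Elements were present in 5 of the 13 genes with a window that fell and in 2 of the 5 that rose (SERP1 and ERO1B). ERO1B entered the test only through its level in LV-SNORA28, so its rise gives no support here. When 1 mismatch in the fixed letters was allowed, ERSE was in 15 of the 50 genes (7 fell, 2 rose). It was in 243 of the 8817 tested genes with a window, these ER genes included, and in 1.55% of all windows. ERSE-II was in 8 of the 50 genes (5 fell, none rose), in 219 of the 8817 tested genes and in 1.23% of all windows. Among tested genes other than these ER genes, 6 had an exact ERSE, of which 0 fell and 1 rose, with a median log2 fold change of 0.13. An exact ERSE-II was in 10 such genes, of which 0 fell and 0 rose, with a median of 0.08. With 1 mismatch, 228 of them had ERSE (1 fell, 16 rose) and 211 had ERSE-II (6 fell, 11 rose). Of all genes tested 2.10% were called lower, so 0 falls among so few other genes cannot set them apart from these ER genes. The 6 with ERSE also include ALG12, another ER gene, and EIF2A, which overlaps SERP1. A match describes letters only and says nothing of binding.

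The ERSE in the SERP1 window lies on the strand opposite to SERP1 and inside the annotated EIF2A gene (GENCODE, chromosome 3, 150546678 to 150586016), which is read away from SERP1. EIF2A, a translation initiation factor, had 12.44, 11.36 and 10.92 FPKM with LV-NC and 17.54, 16.87 and 17.11 FPKM with LV-SNORA28, and it rose as well (log2 fold change 0.53, SE 0.0668, adjusted p 0.00986 in limma). The annotated SERP1 gene reaches across EIF2A on the opposite strand. Whether the quantification used strand is not given in the sources used here. The 250 bases before the RefSeq start of SERP1 (minus strand, 5′ to 3′) are shown for comparison with HSPA5. The reverse complement of the exact ERSE match is in capitals.
SERP1 (chr3:150546497-150546746): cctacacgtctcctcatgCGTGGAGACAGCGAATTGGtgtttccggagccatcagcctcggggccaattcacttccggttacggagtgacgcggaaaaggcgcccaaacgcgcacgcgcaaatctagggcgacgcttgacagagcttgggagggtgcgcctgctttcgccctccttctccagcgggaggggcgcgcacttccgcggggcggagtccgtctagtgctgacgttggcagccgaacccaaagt

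**Figure D3:**
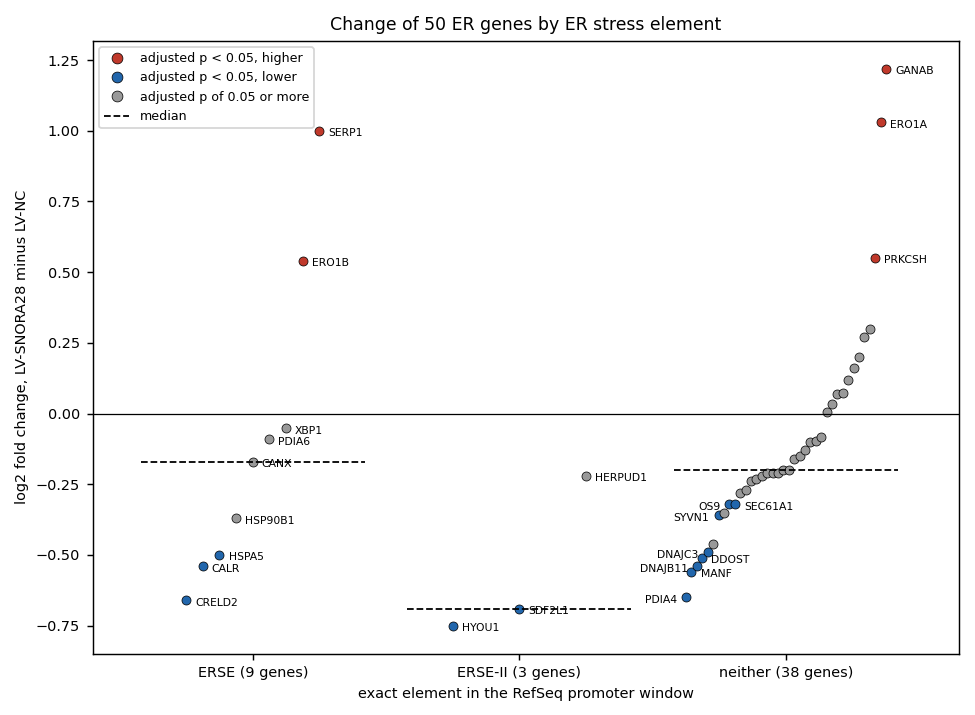
Log2 fold change (LV-SNORA28 minus LV-NC, y axis) of the 50 ER genes with a RefSeq promoter window, grouped (x axis) by an exact ERSE (9 genes), an exact ERSE-II (3 genes) or neither (38 genes). Points are genes, dashed lines are group medians, and genes that fell and genes that rose are found both with and without an element.

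The decrease was marked among the most abundant ER genes. All 9 genes averaging 100 FPKM or more (HSPA5, CALR, HSP90B1, P4HB, PDIA3, DDOST, PDIA4, CANX and RPN2) had LV-SNORA28 libraries below all LV-NC libraries, and 5 of the 9 fell. Their median log2 fold change was -0.38. The 214 other protein-coding nuclear genes at that level had a median log2 fold change of 0.01, and 10 fell and 13 rose. The groups did not overlap for 52 of these 214 downward and for 52 upward. The 48 ER genes below 100 FPKM had a median of -0.11, and 9 fell and 6 rose. The summed FPKM of the 57 genes was 3101, 3220 and 3231 in LV-NC and 2568, 2640 and 2666 in LV-SNORA28. As a share of the non-mitochondrial FPKM sum the LV-NC libraries gave 1.64% ± 0.0193 (SD, n = 3). The LV-SNORA28 libraries gave 1.33% ± 0.0271 (SD, n = 3).

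**Figure D4:**
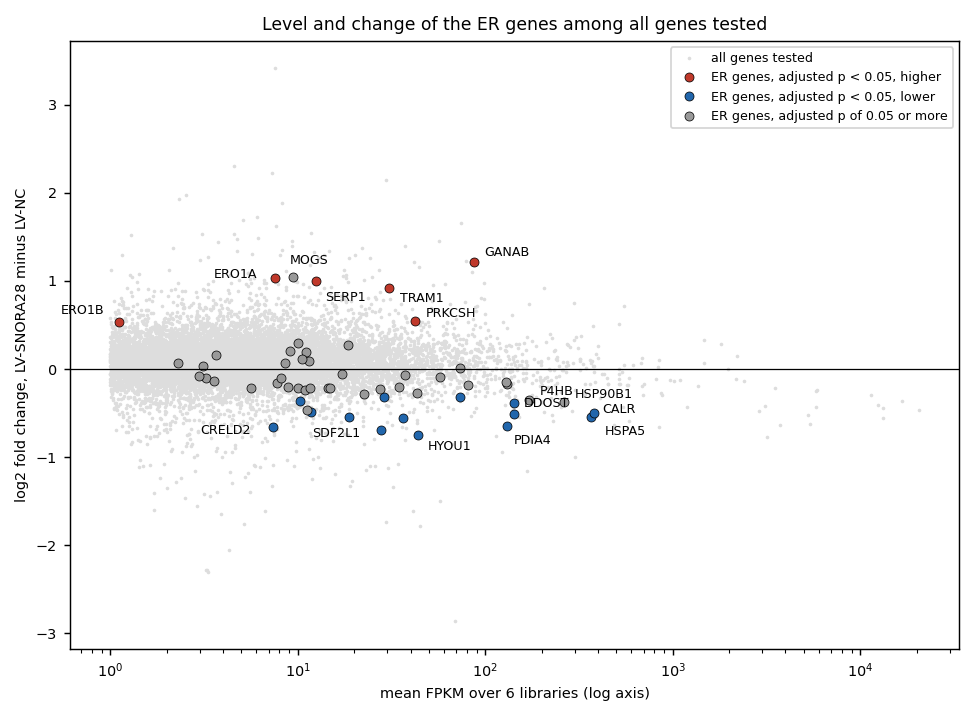
Log2 fold change (LV-SNORA28 minus LV-NC, y axis) against the mean FPKM over the 6 libraries (x axis, log axis) for the 12076 genes tested (light points) and the 57 ER genes (large points). The ER genes above 100 FPKM all lie below 0, and GANAB, at a mean of 87.1 FPKM, is the most abundant one that rose.

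Ratios of paralogues within a library do not depend on how the library was scaled. The ratio of STT3A, which glycosylates chains as they enter, to STT3B, which acts on sites that were missed, was 0.66, 0.716 and 0.567 in LV-NC and 0.559, 0.581 and 0.525 in LV-SNORA28 (exact two-sided permutation p 0.2). The ratio of UGGT1 to UGGT2 was 3.68, 3.62 and 4.33 in LV-NC and 3.5, 3.48 and 3.43 in LV-SNORA28, and these groups did not overlap (exact permutation p 0.1, the smallest that 3 against 3 libraries allow). The ratio of ERO1A to ERO1B was 4.94, 7.11 and 7.7 in LV-NC and 7.73, 6.34 and 7.07 in LV-SNORA28 (exact permutation p 0.8). Adjusted over the 3 ratios by the Benjamini-Hochberg method, the exact permutation p-values were 0.3, 0.3 and 0.8, and this design could not have gone below 0.1 for any ratio. The difference in the log2 ratio of ERO1A to ERO1B was 0.12, and it was -0.08 without LV-NC replicate 1.

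A wider list of 132 further ER genes was examined, of which 125 passed the filter. Of these, 10 rose and 2 fell, against 6.81% and 2.10% of all genes tested, with a median log2 fold change of 0.02. The number that rose was 5, 4 and 5 without LV-NC replicate 3 and LV-SNORA28 replicates 2 and 3, and the number that fell was 1 without any 1 of the LV-SNORA28 replicates. None of the 8 genes of the signal recognition particle and its receptor passed. Among 29 other folding enzymes only PPIB and TMX3 passed. PPIB (cyclophilin B), an abundant ER prolyl isomerase, had 270.45, 269.81 and 266.31 FPKM with LV-NC and 191.79, 191.09 and 177.92 FPKM with LV-SNORA28 (log2 fold change -0.52, SE 0.0556, adjusted p 0.00634 in limma), and it fell in the same range as HSPA5 and CALR. BHLHA15 (MIST1), a transcription factor of secretory cells, had 4.46, 2.92 and 3.56 FPKM with LV-NC and 1.76, 1.39 and 1.83 FPKM with LV-SNORA28 (log2 fold change -0.80, adjusted p 0.0233 in limma). The adjusted p of BHLHA15 rose to 0.0685, 0.0625, 0.0800 and 0.0694 without LV-NC replicate 3 and LV-SNORA28 replicates 1, 2 and 3.

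In the wider list, ALG5 and CAMLG had the largest increases. ALG5, which makes the glucose donor for the lipid-linked glycan, had 2.81, 3.14 and 2.59 FPKM with LV-NC and 7.45, 9.27 and 8.98 FPKM with LV-SNORA28 (log2 fold change 1.31, SE 0.10, adjusted p 0.00278 in limma). CAMLG, a subunit of the receptor that inserts tail-anchored proteins, had 7.03, 7.1 and 6.08 FPKM with LV-NC and 15.4, 16.6 and 17.77 FPKM with LV-SNORA28 (log2 fold change 1.19, SE 0.0849, adjusted p 0.0025 in limma). Its partner GET1 had 0.64, 0.68 and 0.81 FPKM with LV-NC and 1.83, 2.1 and 1.43 FPKM with LV-SNORA28, and it passed the filter only through LV-SNORA28. GET1 had an adjusted p of 0.0188 in limma, and of 0.0514, 0.0572 and 0.0503 without LV-NC replicates 1, 2 and 3 and 0.0625 and 0.0648 without LV-SNORA28 replicates 1 and 2. SEC11A, a catalytic subunit of signal peptidase, had 11.87, 12.67 and 11.39 FPKM with LV-NC and 19.68, 20.54 and 20.09 FPKM with LV-SNORA28 (log2 fold change 0.70, adjusted p 0.00382 in limma), whereas its accessory subunits SPCS1, SPCS2 and SPCS3 showed no call.

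In the PERK branch, ATF4 had 42.18, 44.87 and 39.77 FPKM with LV-NC and 41.38, 39.65 and 36.08 FPKM with LV-SNORA28, without a call (adjusted p 0.383 in limma). DDIT3 (CHOP), its pro-apoptotic target, had 9.89, 19.35 and 18.26 FPKM with LV-NC and 15.28, 15.86 and 13.64 FPKM with LV-SNORA28, with LV-NC replicate 1 far below its group (adjusted p 0.952 in limma). PPP1R15A (GADD34) and PPP1R15B (CReP), the regulatory subunits that bring a phosphatase to eIF2alpha, both rose. PPP1R15B had 15.25, 11.33 and 12.97 FPKM with LV-NC and 22.07, 21.87 and 25.08 FPKM with LV-SNORA28 (log2 fold change 0.77, adjusted p 0.0151 in limma, and 0.0508, 0.0511 and 0.0584 without LV-NC replicate 3 and LV-SNORA28 replicates 2 and 3). PPP1R15A had 24.4, 26.35 and 24.52 FPKM with LV-NC and 31.28, 35.28 and 31.9 FPKM with LV-SNORA28 (log2 fold change 0.37, adjusted p 0.0269 in limma). TRIB3, a target of ATF4 and CHOP named after its values were seen, had 21.3, 26.67 and 23.54 FPKM with LV-NC and 36.13, 39.89 and 35.76 FPKM with LV-SNORA28. It rose (log2 fold change 0.63, SE 0.0939, adjusted p 0.0154 in limma), with an adjusted p of up to 0.0601 and no call without LV-NC replicate 3 or LV-SNORA28 replicates 2 or 3. PPP1R15A lost its call whichever library was left out, with an adjusted p of 0.0520 to 0.0891 in limma. Of the 22 stress response genes of the wider list that were tested, these 3 rose (13.6%, against 6.81% of all genes tested) and 1 fell. CHAC1, CEBPB and ATF3 had log2 fold changes of 0.20, 0.34 and 0.26 without a call (adjusted p 0.136, 0.14 and 0.563 in limma).

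The direction of the 20 calls among the 57 genes did not turn in any of the 13 alternatives, and 11 of the 20 kept an adjusted p below 0.05 in limma in each of them. These 11 were HSPA5, HYOU1, SDF2L1, CRELD2, CALR and PDIA4 downward and GANAB, PRKCSH, ERO1A, TRAM1 and SERP1 upward.

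**Figure D5:**
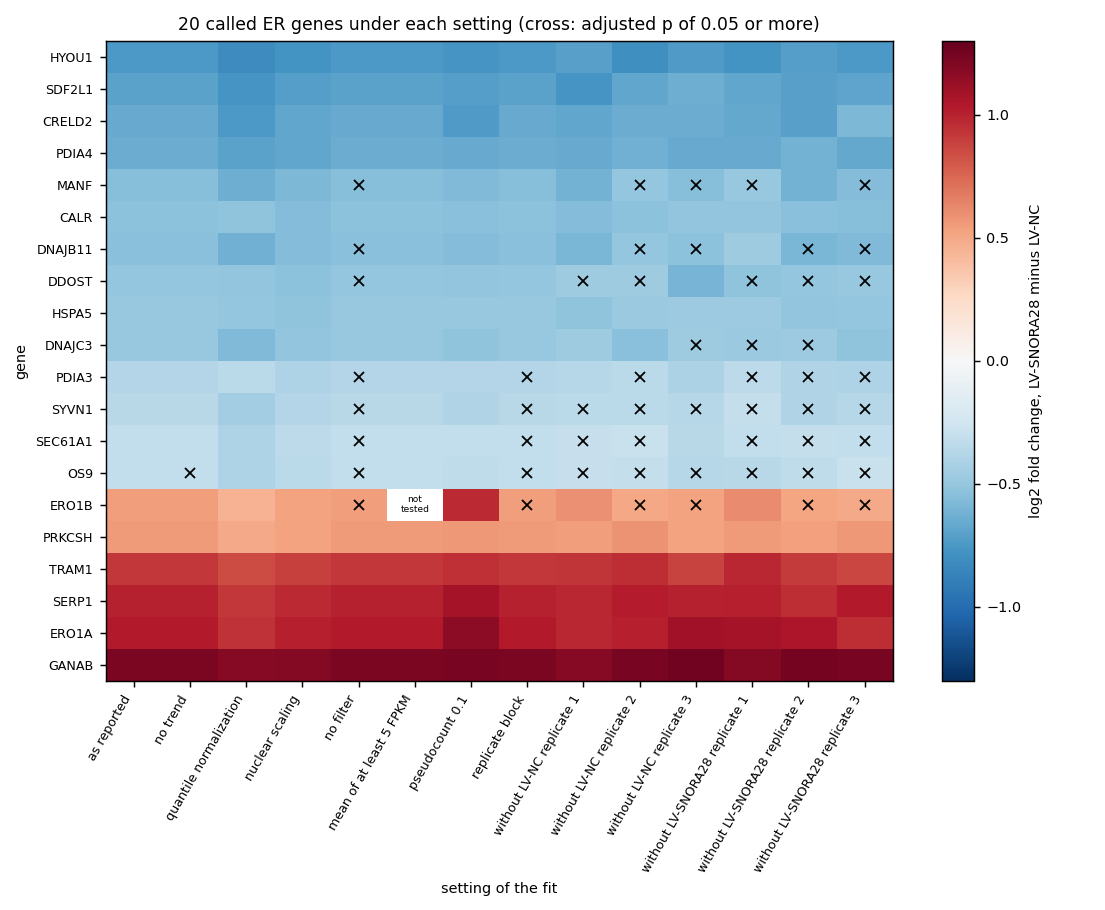
Log2 fold change (colour, LV-SNORA28 minus LV-NC) of the 20 called ER genes (y axis) as reported and under 13 alternative settings (x axis), with a cross where the adjusted p was 0.05 or more. Colours keep their sign along each row, crosses gather on OS9, SYVN1 and SEC61A1, and ERO1B was not tested with the filter at 5 FPKM.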

How the data were processed

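The authors deposited 1 table per library with Ensembl gene identifiers and FPKM values at 2 decimals, and the submitters' processing notes name cutadapt 1.9, HISAT2 2.2.1, StringTie 2.1.6 and hg38. The annotation release, strand setting, filters and depth are not given in the sources used here, so no counting interval was attached. Symbols and coordinates came from GENCODE release 44 (GRCh38), matching 60401 of 60612 identifiers. Values were transformed to log2(FPKM + 1), which understates the change of low genes. Genes averaging 1 FPKM or more were fitted with limma 3.58.1 in R 4.3.3 (eBayes with a trend, two-sided, Benjamini-Hochberg over all genes tested). The steps were tested on simulated data with 50 genes at each size of change. True log2 fold changes of 0.5, 1, 2 and -1 were recovered for 38%, 82%, 98% and 80% of genes, with 9 false calls. The simulation changed fewer genes than the 1076 called in the data, so these rates need not hold here. At such rates a gene without a call can still have changed by about 0.5. Alternatives were no trend, quantile or non-mitochondrial scaling, other filters and pseudocount, a replicate block and leaving out each library. Ratios used exact permutation tests (scipy 1.17.1). The members, the wider list and the naming rule (called members, the most abundant and most changed member of each sub-function, the signalling genes and standard reporters, and the 5 largest calls each way of the wider list) were chosen with earlier results of these data known. EIF2A and the members outside that rule, such as MOGS, P4HB and SSR1, were given values after these had been seen.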

Additional observations from a re-analysis of the deposited data

How the results depend on the processing

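Depth is unknown, so the precision of genes near 1 FPKM, such as ERO1B, rests on the spread of 3 libraries. Count models were not run because the tables hold FPKM only. Against 1076 genes called as reported, 397 were called without a filter, where more genes were tested, 510 with the replicate number as a block, and 279 to 628 with 1 library left out and fewer samples. Of the 57 ER genes, 14 fell and 6 rose. Without a filter 7 fell, with the block 10 fell and 5 rose, and with 1 library left out 7 to 10 fell and 5 or 6 rose. With a fold change above 2 in the same limma fit, 3 ER genes passed in place of the 9 at a fold change over 1.5. The median log2 fold change of the 57, -0.18 as reported, was -0.26 after quantile normalization, which centres all genes near 0, and -0.19 to -0.14 with 1 library left out. In the wider list, 10 rose and 2 fell as reported. Those that rose numbered 6 without a filter and 4 to 8 with 1 library left out, and those that fell numbered 6 after quantile normalization, 4 with non-mitochondrial scaling, 1 without a filter and 1 to 2 with 1 library left out. The labels give same-numbered libraries a shared number and do not say whether they were prepared together. Correlations of their deviations were -0.0441, 0.0914 and 0.00983, which cannot settle that. With the replicate block OS9, PDIA3, SEC61A1, SYVN1 and ERO1B lost their calls. Values without a call changed sign for ERN1 (-0.0151 after quantile normalization), XBP1 (0.0143 without LV-NC replicate 2 and 0.0636 without LV-SNORA28 replicate 2, range -0.2 to 0.0636), DDIT3 (0.13, 0.0949 and 0.0305 without LV-NC replicates 2 and 3 and LV-SNORA28 replicate 3, range -0.32 to 0.13) and the ERO1A to ERO1B ratio (-0.0754 without LV-NC replicate 1, range -0.0754 to 0.24). Among values of single genes under the alternatives, 442 kept direction and side of the threshold, 77 lost the threshold, 3 gained it and 6 changed sign. The cause was not tested.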
